A study of Mus musculus with 12 samples.

Results

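The CXC and CX3C chemokine ligands are small secreted or membrane-tethered proteins that steer leukocytes, and 10 of them, taken by their gene symbols from the 25655 genes of the deposited tables, were examined in the mouse retina after optic nerve crush (ONC). The 10 genes were Cxcl1, Cxcl2 and Ppbp, Cxcl9 and Cxcl10, Cxcl12, Cxcl13 and Cxcl14, and Cxcl16 and Cx3cl1. No filter on their values was applied, but the list of symbols was made with earlier results of these data known. A separate list held 6 other CXC ligands, among them Pf4. C57BL/6J mice, given as 8 to 10 weeks of age, had the left optic nerve crushed and then received a single intravitreal injection. The injection held PBS as the control, fluvastatin, MBV, or fluvastatin and MBV together, so that crush and injection were common to all groups. Fluvastatin is a statin, an inhibitor of HMG-CoA reductase, and MBV are matrix-bound nanovesicles prepared from porcine urinary bladder. Total RNA of the whole retina was sequenced 2 days after ONC from 3 samples in each of 4 groups, and the comparisons ask how each treatment altered the injured retina. Counts could be traced to named libraries in 3 groups (PBS, fluvastatin and MBV), and the combined treatment was not analysed here. All samples are labelled as ONC, so the series holds no uninjured retina to compare to. Nothing in the labels says that the 3 samples of a group came from separate mice, so the p-values measure the spread between these samples.

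CXC ligands are named for a single residue between their first cysteines, and CX3C ligands for a wider spacing. Ligands with a Glu-Leu-Arg motif, such as Cxcl1, Cxcl2 and the Ppbp product, act on Cxcr2 and draw neutrophils, whereas Cxcl9 and Cxcl10 are interferon-induced and draw activated T cells and NK cells through Cxcr3. Cxcl12 and Cxcl13 are mostly homeostatic, and Cxcl16 and Cx3cl1 are made as transmembrane proteins from which a soluble chemokine is cut. In the retina, Cx3cl1 of neurons and its receptor Cx3cr1 on microglia are a well known pair.

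Of the 10 genes, 6 were on chromosome 5, where Ppbp, Cxcl1 and Cxcl2 lay close together, Cxcl9 and Cxcl10 lay next to each other farther along, and Cxcl13 lay apart. The 250 bases before the start of transcription are shown for Cxcl1, Cxcl2 and Cxcl10, the ligands with the highest ratios to PBS below among those that could be measured. The sequences are from RefSeq (assembly GRCm38.p6), which had an entry for 9 of the 10 genes, and are written 5′ to 3′ along the gene's strand. They cover chr5:90890995-90891244 on the plus strand for Cxcl1, chr5:90903649-90903898 on the plus strand for Cxcl2 and chr5:92348890-92349139 on the minus strand for Cxcl10. Capitals mark, in the first 2 genes, a match to an NF-kB type site, written GGG, 2 bases of any kind and TTTCC. In Cxcl10 they mark a match to the core of an interferon-stimulated response element, written GAAA, 2 bases of any kind and GAAA, and the letters CCAAT.
Cxcl1: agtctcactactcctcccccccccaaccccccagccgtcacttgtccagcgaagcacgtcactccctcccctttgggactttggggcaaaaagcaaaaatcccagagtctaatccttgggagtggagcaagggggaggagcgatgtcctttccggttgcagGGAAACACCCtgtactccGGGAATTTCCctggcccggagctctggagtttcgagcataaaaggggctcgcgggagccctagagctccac
Cxcl2: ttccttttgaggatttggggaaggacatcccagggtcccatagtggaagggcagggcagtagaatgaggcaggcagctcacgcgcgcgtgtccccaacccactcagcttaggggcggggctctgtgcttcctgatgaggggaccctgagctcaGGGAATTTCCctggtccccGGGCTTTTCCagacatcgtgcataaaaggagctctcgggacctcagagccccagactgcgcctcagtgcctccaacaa
Cxcl10: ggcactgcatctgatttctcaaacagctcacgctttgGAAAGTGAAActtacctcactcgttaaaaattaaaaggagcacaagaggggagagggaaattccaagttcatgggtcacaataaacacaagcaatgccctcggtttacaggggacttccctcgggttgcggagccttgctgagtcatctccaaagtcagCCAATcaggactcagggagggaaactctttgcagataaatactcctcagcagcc
The NF-kB type match was present at -71 to -62 and, on the other strand, at -89 to -80 in Cxcl1, and at -97 to -88 and -78 to -69 in Cxcl2, counted from the start of transcription. Cxcl10 held the interferon type match at -213 to -204 and CCAAT at -54 to -50. Both strands of 32851 promoters of the same length were searched, of which 1.41% held the NF-kB type site, 2.98% the interferon type core and 33.8% CCAAT. Among the other ligands with an entry, Cxcl14 held the interferon type core at -172 to -163 and Cxcl9 held CCAAT at -65 to -61. The NF-kB type site as written here is strict. The Cxcl10 sequence also holds gggaaattcc and gggacttccc, in lower case above, which come close to that site without matching it. The search therefore does not set Cxcl10 apart from Cxcl1 and Cxcl2 in sites of this type. These matches describe letters and were not tested as binding sites.

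Depth and cell content were as follows. The counts on genes were 23634662 to 27098889 per library with fluvastatin, 21349516 to 26738043 with MBV and 26325065 to 30992040 with PBS, and levels are given as CPM, the counts scaled to library size with TMM factors. The label of retina was borne out by 5 photoreceptor markers, which summed to 26151 to 41209 CPM. When compared to PBS, 1 of these 5 fell with fluvastatin and 3 with MBV, 4 and 2 of 5 Müller glia markers fell, and 2 and 1 of 5 pigment epithelium markers rose. Over all genes tested, 10.2% fell and 9.36% rose with fluvastatin, and 14.1% fell and 12% rose with MBV (FDR under 0.05). Monocyte markers, a list of 6 genes, summed to 56.4 to 75.4 CPM with PBS, 12.3 to 45.5 with fluvastatin and 9.73 to 59.9 with MBV. Most of that sum in PBS was Vcan, with 54.0 to 73.0 CPM, which fell with fluvastatin (FDR 0.0314) and MBV (FDR 0.0393). By the test, 2 of the 6 fell with fluvastatin and 1, Vcan, with MBV, and 0 rose. The sum does not stand for the whole list. With MBV, 4 of the 6 had a log2 fold change above 0, among them Ccr2 (2.34, FDR 0.0787) and Ly6c2 (4.64, FDR 0.0684), against 1 of 6 with fluvastatin. MBV replicate 3 stood apart within its group with 59.9 CPM against 12.1 and 9.73, of which Vcan made 41.8 CPM, and it also had the most counts of Ccr2 (222) and Ly6c2 (67) of all 9 libraries. Lens markers summed to 47.4 to 121.6 CPM with MBV, 1.94 to 5.56 with PBS and 2.84 to 16.6 with fluvastatin, and 5 of the 6 rose with MBV when compared to PBS. Red cell markers summed to 6.50 to 8.25 CPM with PBS and 13.3 to 17.2 with the other groups. The part of these cells in the results on chemokines was not tested. In the sample labels, PBS and the combined treatment share 1 set of library numbers, and fluvastatin and MBV share another. Comparisons to PBS thus cross the sets, where effects of the set and of the treatment cannot be told apart.

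Cx3cl1 was the most abundant of the 10 ligands in the injured retina. It held 53.5% to 59.1% of the counts of the 10 ligands in each library, and together with Cxcl14, Cxcl12 and Cxcl16 it held 97.1% to 99.3%. Per kilobase of exon and over the 9 libraries, the mean level was 24.2 CPM for Cx3cl1 and 11.5 for Cxcl14. Each library had more Cx3cl1 than any library had Cxcl14, and more Cxcl14 than any had of the next ligands. Cxcl12 and Cxcl16 (both 2.37 CPM per kilobase) could not be ordered. Below them came Cxcl13 at 0.673, with Cxcl10 at 0.596, Ppbp at 0.169, Cxcl2 at 0.143 and Cxcl1 at 0.0661 CPM per kilobase, and the libraries of each of these neighbours overlapped. Cxcl9 was last at 0.00778 CPM per kilobase. With the length of the canonical transcript in place of all exons, a length chosen after seeing the data, Cxcl16 stood at 4.05 above Cxcl12 at 3.48 and Cxcl10 at 1.22 above Cxcl13 at 0.673.

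**Figure D1:**
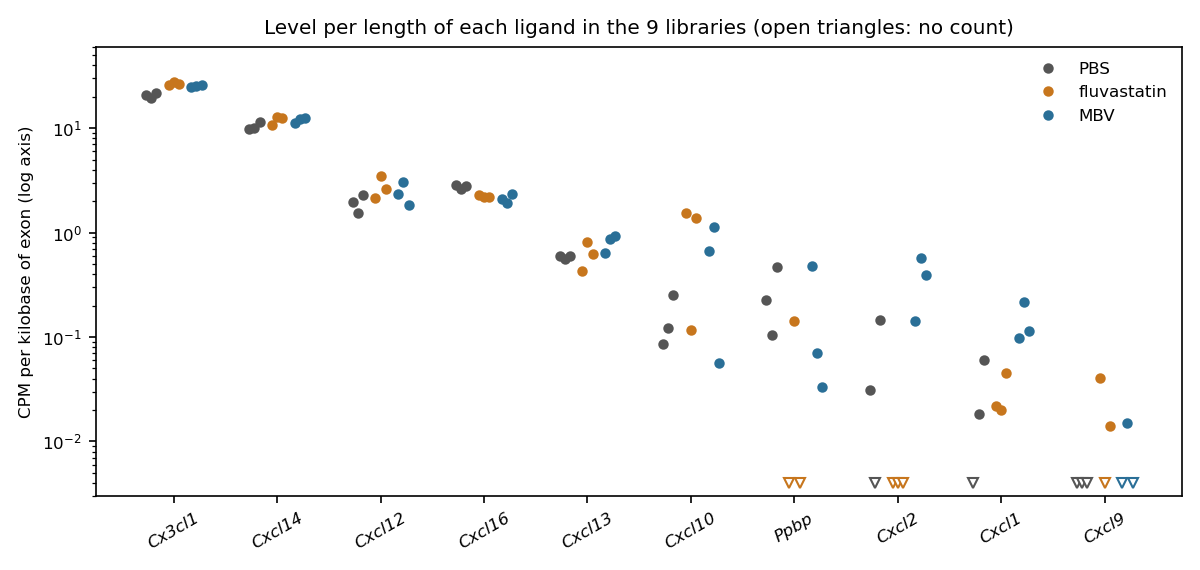
Level of each ligand per kilobase of exon (CPM, log axis) in the 9 libraries, coloured by group, with open triangles for libraries without a count. Cx3cl1 and Cxcl14 lie above all other ligands, and Cxcl10 spreads most among those with counts in all libraries.

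When compared to PBS, Cxcl10 and Cx3cl1 rose and Cxcl16 fell with fluvastatin, which is 3 of the 10 ligands at a false discovery rate (FDR) under 0.05. In that comparison 19.6% of the 18818 genes tested passed (9.36% higher and 10.2% lower), so that 3 of 10 was not far from the background. With MBV, Cxcl2 and Cx3cl1 rose and Cxcl16 fell, again 3 of 10, against 26.1% of 18897 genes (12% higher and 14.1% lower). MBV compared to fluvastatin gave 0 of 10 by edgeR, where 0.0588% of 18721 genes passed (0.0267% higher and 0.032% lower). In that comparison 2 ligands, Cxcl1 and Cxcl2, had an unadjusted p-value under 0.05, and DESeq2 called 1, Cxcl2. Over the 10 ligands, the median log2 fold change was 0.19 after fluvastatin and 0.38 after MBV when compared to PBS, and -0.03 between MBV and fluvastatin, whereas the median over all genes tested was -0.01, 0.01 and 0.01. Both comparisons to PBS use the same PBS libraries. The groups did not overlap in CPM for 2 ligands with fluvastatin and PBS, 4 with MBV and PBS and 2 with MBV and fluvastatin, against 36.6%, 41.3% and 16.4% of all genes tested. Leaving out 1 library moved the number called. With fluvastatin it was 1 without PBS replicate 1 or fluvastatin replicate 3 and 5 without fluvastatin replicate 1. With MBV it was 1 without PBS replicate 1 and 5 without PBS replicate 3 or MBV replicate 3, and between MBV and fluvastatin it was 1 without MBV replicate 3. FDRs are Benjamini-Hochberg values over all genes tested, by edgeR's quasi-likelihood test unless DESeq2 is named. In whole tissue, a change in the number of cells of a type and a change in RNA per cell cannot be told apart.

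**Figure D2:**
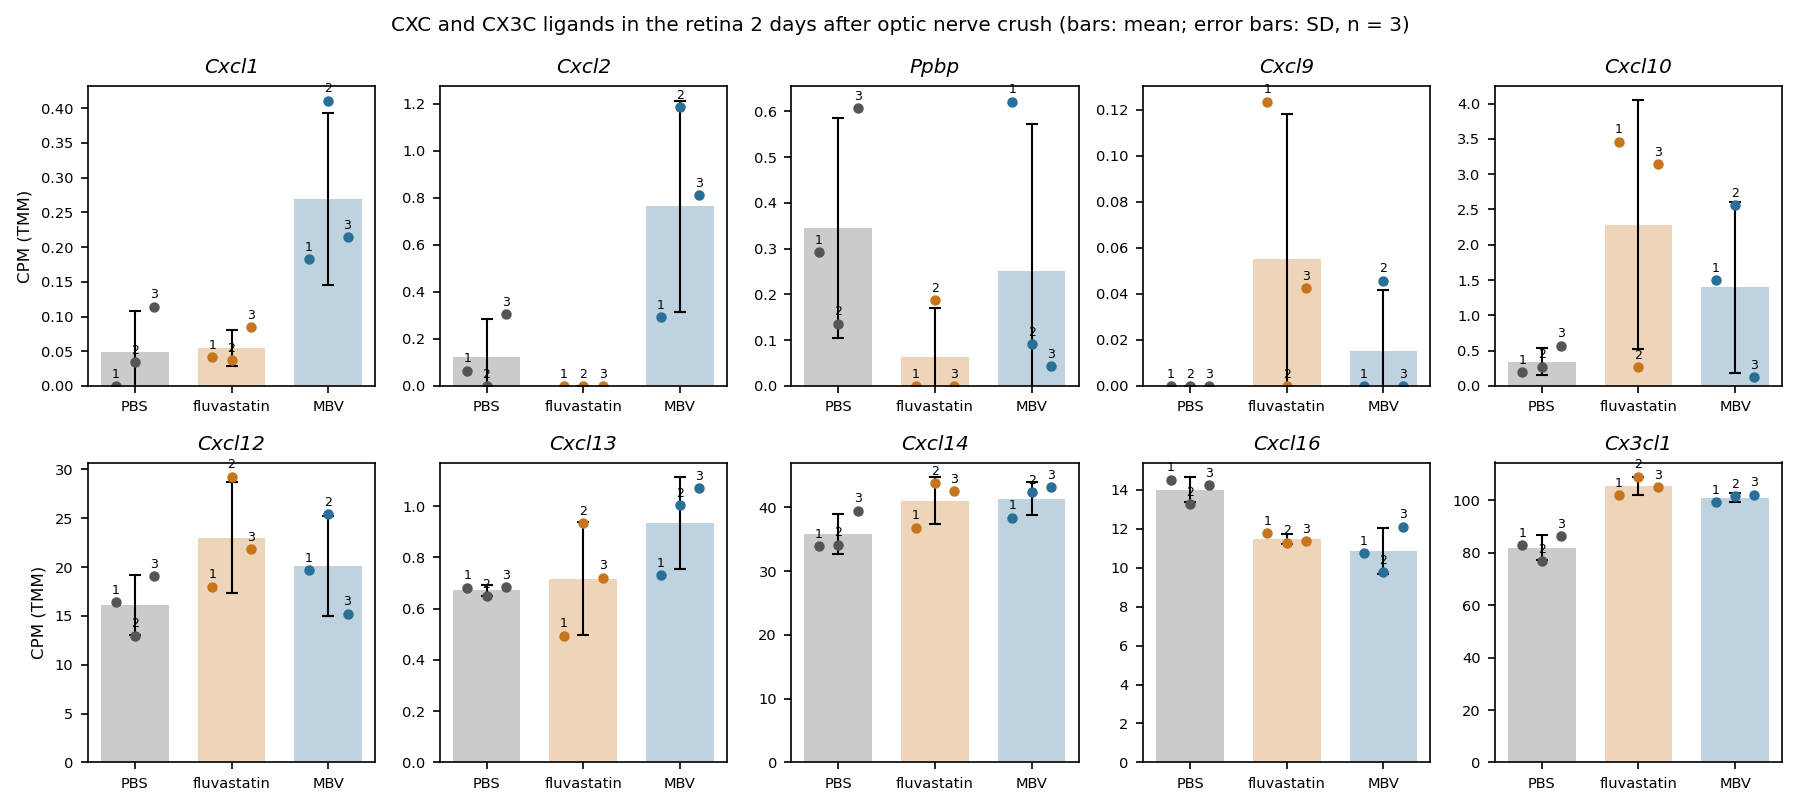
CPM of the 10 ligands by group, with 1 point per library numbered by replicate, bars for the mean and error bars for the SD (n = 3). Cx3cl1 is higher and Cxcl16 lower in every fluvastatin and MBV library than in every PBS library, and the Cxcl10 points of fluvastatin replicate 2 and MBV replicate 3 lie at the level of PBS.

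**Figure D3:**
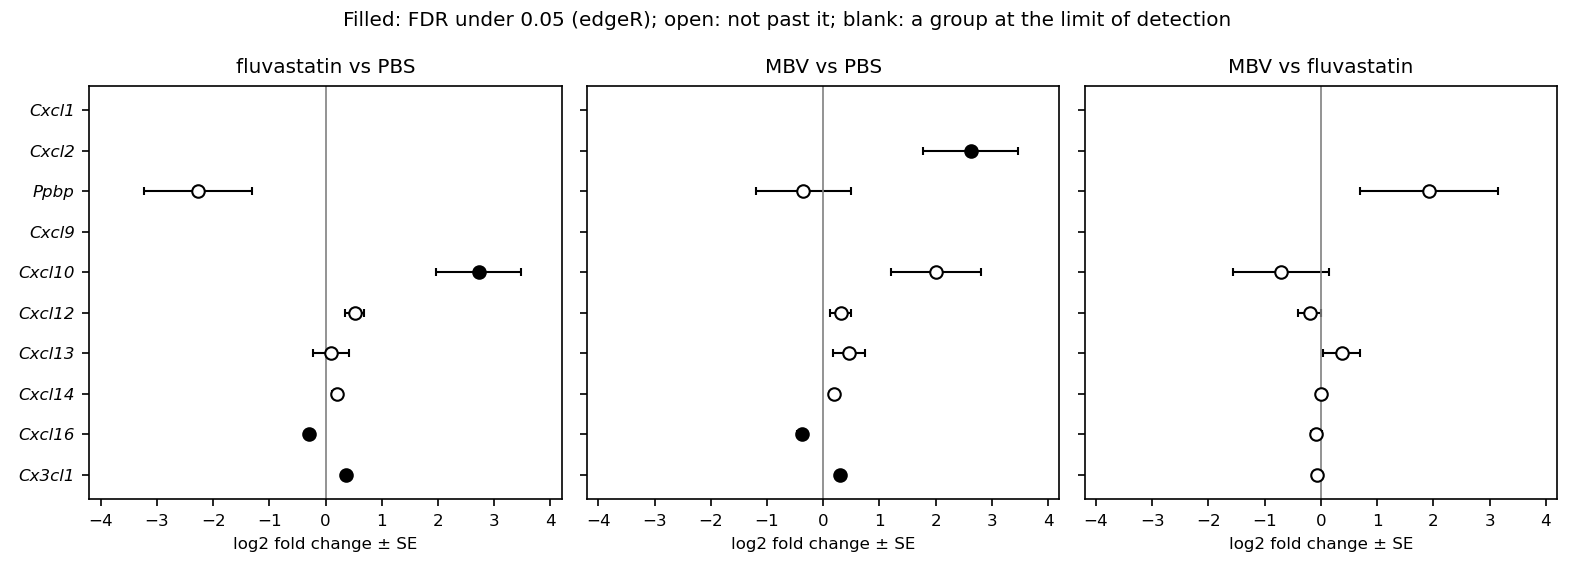
Log2 fold change of each ligand ± SE in the 3 comparisons (6 libraries each), filled where the FDR of edgeR was under 0.05. Rows are blank where all libraries of a group had 3 counts or fewer, and error bars hidden by a point are shorter than it.

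Of the neutrophil-attracting ligands, Cxcl2 rose with MBV and was without a count in the fluvastatin libraries. Cxcl2 (chromosome 5 of GRCm39, 91051730 to 91053797) showed 2, 0 and 8 counts with PBS, 0, 0 and 0 after fluvastatin and 8, 26 and 19 after MBV. MBV replicate 1 equalled PBS replicate 3 in counts, so the MBV and PBS groups overlapped in CPM, whereas every MBV library was above every fluvastatin library. The mean was 0.764 ± 0.450 CPM with MBV and 0.123 ± 0.160 with PBS (SD, n = 3 each), which gave a log2 fold change of 2.62 (SE 0.841, FDR 0.0477). This call was lost without PBS replicate 1 (FDR 0.157), PBS replicate 2 (FDR 0.112) or MBV replicate 2 (FDR 0.136). Taking 3 counts per library as the limit of detection with fluvastatin, the MBV mean of Cxcl2 was 6.32-fold above that limit (53 counts against 0). The MBV libraries ranged from 0.292 to 1.19 CPM, and 3 counts were 0.112 to 0.127 CPM with fluvastatin. For MBV compared to fluvastatin, the FDR of Cxcl2 was 0.134 by edgeR (p-value 0.000416), 0.0468 without MBV replicate 3, and 0.000885 by DESeq2. Of 2209 stretches of 75 bases in Cxcl2 transcripts, 101 also occur in Cxcl3, whose 6, 0 and 4 counts with PBS, 0 after fluvastatin and 3, 0 and 4 after MBV shared the absence of counts with fluvastatin and in PBS replicate 2, but were below those of Cxcl2 in each MBV library.

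Cxcl1, the neighbour of Cxcl2 (91039100 to 91040974), had more counts with MBV than with either other group, at a level close to the limit of detection. Its counts were 0, 1 and 3 with PBS, 1, 1 and 2 after fluvastatin and 5, 9 and 5 after MBV. Every MBV library was above every other library. Its 19 counts against 4 gave a ratio of 5.65 to PBS (exact 95% interval 1.88 to 22.8, for counting error only) and of 4.88 to fluvastatin (1.62 to 19.7). The FDR of edgeR was 0.0670 for MBV compared to PBS, 0.0432 without PBS replicate 3, and 0.351 for MBV compared to fluvastatin.

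Ppbp, the platelet basic protein precursor (90916377 to 90917922), did not pass the test in any comparison. It had 9, 4 and 16 counts with PBS, 0, 5 and 0 after fluvastatin and 17, 2 and 1 after MBV. The MBV libraries thus spanned from above the highest PBS library to below the lowest. The log2 fold change was -2.28 (SE 0.962, FDR 0.129) with fluvastatin and -0.35 (SE 0.842, FDR 0.790) with MBV, and the latter became 0.29 without PBS replicate 3, 0.02 without MBV replicate 2 and 0.14 without MBV replicate 3. Pf4, the other platelet chemokine, fell with both treatments, from 15, 8 and 8 counts with PBS to 0, 0 and 0 with fluvastatin (FDR 0.00655) and 1, 0 and 3 with MBV (FDR 0.0310). With MBV, the fall of Pf4 passed in 1 of 6 fits that left out a library (FDR 0.0543 to 0.123 in the others). The 6 platelet markers, which include Pf4, summed to 4.54 to 4.98 CPM with PBS, 3.13 to 6.21 after fluvastatin and 5.16 to 7.34 with MBV.

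Neutrophil markers were near the limit of detection. The list of 6 genes summed to 0.409 to 0.836 CPM with PBS, 0.165 to 0.187 after fluvastatin and 0.228 to 1.97 with MBV, highest in MBV replicate 3. When compared to PBS, 1 of the 4 tested fell with fluvastatin, against 10.2% of all genes. With MBV, 0 of 5 passed, against 26.1% of all genes. Ly6g had no count in any library and Mpo 1 count, in MBV replicate 3, which allows up to 3 counts per library. Cxcl1 and Cxcl2 were highest in MBV replicate 2, the MBV library with the fewest neutrophil and monocyte markers. This order rests on few counts, and the part of these cells in the level of the ligands was not tested. The receptor Cxcr2 had 0, 0 and 3 counts with PBS, 0, 2 and 1 after fluvastatin and 4, 2 and 9 after MBV (FDR 0.139 for MBV compared to PBS), and Cxcr1 had none.

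The interferon-induced ligand Cxcl10 rose with fluvastatin, but its level split both treated groups. Cxcl10 (chromosome 5, 92494497 to 92496748, minus strand) had 6, 8 and 15 counts with PBS, 84, 7 and 74 after fluvastatin and 41, 56 and 3 after MBV. Fluvastatin replicates 1 and 3 and MBV replicates 1 and 2 were above all PBS libraries, while fluvastatin replicate 2 lay within the PBS range and MBV replicate 3 was the lowest of the 9. The mean was 0.346 ± 0.198 CPM with PBS, 2.29 ± 1.76 after fluvastatin and 1.39 ± 1.22 after MBV (SD, n = 3 each). When compared to PBS, Cxcl10 was 6.61-fold higher with fluvastatin (log2 fold change 2.72, SE 0.757, FDR 0.0299). The FDR was 0.112 without PBS replicate 1, 0.0857 without PBS replicate 2, 0.0929 without fluvastatin replicate 3 and 0.0611 with all 9 libraries in one fit. With MBV, the log2 fold change was 2.01 (SE 0.794, FDR 0.0953), with an FDR of 0.000744 without MBV replicate 3 and 0.0416 by DESeq2. The difference between MBV and fluvastatin did not pass the test (log2 fold change -0.71, SE 0.850, FDR 0.768).

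Within each treated group, the library with the least Cxcl10 was also the lowest in Irf1 and Irf9, transcription factors of the interferon pathway that were picked after their values were seen. Irf9, the DNA-binding subunit of the type I interferon complex, had 14.9, 14.3 and 31.3 CPM with PBS, 27.6, 18.1 and 29.2 with fluvastatin and 28.5, 33.8 and 19.5 with MBV. Irf1, which interferon gamma induces, had 5.82, 5.15 and 11.0 CPM with PBS, 9.31, 4.90 and 9.07 with fluvastatin and 7.31, 8.40 and 5.82 with MBV. Fluvastatin replicate 2 and MBV replicate 3 were thus the lowest of their groups for both genes, and PBS replicate 3 was the highest of its group for both and for Cxcl10 (0.570 CPM). The scale differed between groups, since PBS replicate 3 had the most Irf1 of all 9 libraries with 15 counts of Cxcl10. Irf7, which amplifies the type I interferon response, did not follow this order, with its highest MBV level of 18.6 CPM in replicate 3. None of these 3 factors passed the test in any comparison. When compared to PBS, the FDR of Irf9 was 0.476 after fluvastatin and 0.324 after MBV, and that of Irf1 was 0.872 and 0.945. Ifng and Ifnb1, which encode interferons, had no count in any of the 9 libraries. Fluvastatin replicate 2 and MBV replicate 3 also had the highest pigment epithelium sums of their groups (122.3 and 120.7 CPM). The share of all genes in which these libraries are the lowest of their groups was not counted.

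**Figure D4:**
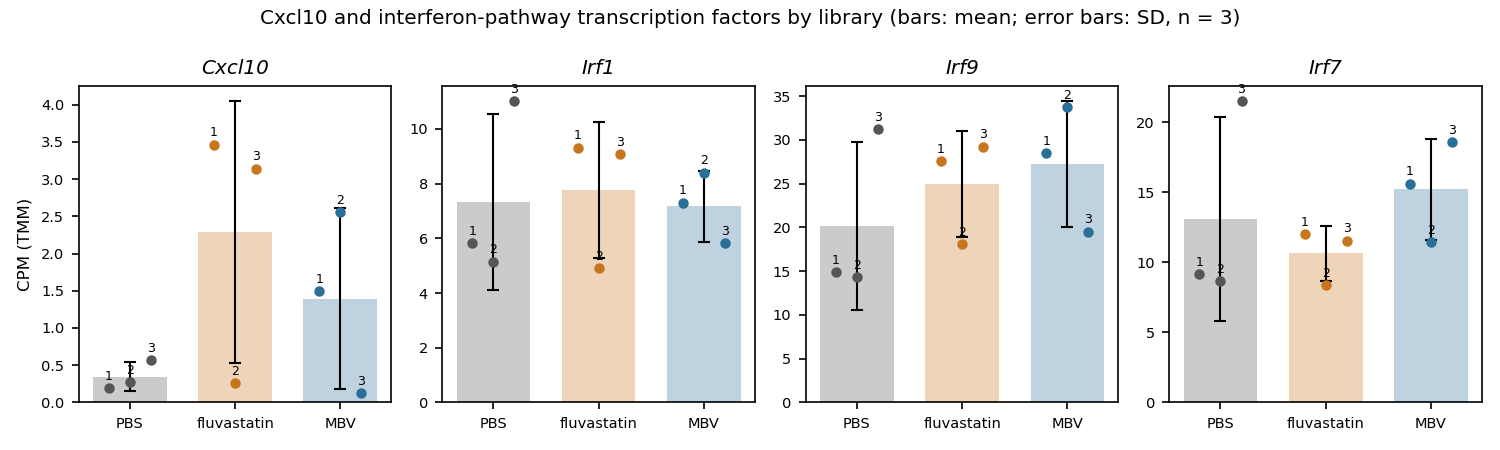
CPM of Cxcl10, Irf1, Irf9 and Irf7 by group, with 1 point per library numbered by replicate, bars for the mean and error bars for the SD (n = 3). Fluvastatin replicate 2 and MBV replicate 3 are the lowest of their groups for Cxcl10, Irf1 and Irf9, whereas MBV replicate 3 is the highest of its group for Irf7.

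Cxcl9, the other Cxcr3 ligand measured (92469206 to 92475938, minus strand), was at the limit of detection. It had no count with PBS, 3, 0 and 1 after fluvastatin and 0, 1 and 0 after MBV, and 3 counts correspond to 0.0975 to 0.137 CPM in these libraries. No fold change is given for it. Cxcl11, which also acts on Cxcr3, reached at most 3 counts in any library, and Cxcr3 at most 1. Lymphocyte markers summed to at most 0.621 CPM. Cxcl10 overlaps Art3 on the other strand, and 59 of 2393 stretches of 75 bases in its transcripts are shared with it. Art3 had 16, 13 and 20 counts with PBS, 19, 22 and 11 after fluvastatin and 15, 13 and 20 after MBV, so it did not share the split of Cxcl10 (FDR 0.617 after fluvastatin and 0.698 after MBV when compared to PBS).

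None of the homeostatic ligands Cxcl12, Cxcl13 and Cxcl14 passed the test. Cxcl12, which retains stem cells and guides neural progenitors through Cxcr4 (chromosome 6, 117145496 to 117158328), had 16.4, 13.0 and 19.0 CPM with PBS, 18.0, 29.2 and 21.8 after fluvastatin and 19.7, 25.4 and 15.2 after MBV. All groups overlapped. The mean was 16.1 ± 3.05 CPM with PBS, 23.0 ± 5.71 after fluvastatin and 20.1 ± 5.12 after MBV (SD, n = 3 each). The log2 fold change with fluvastatin was 0.52 (SE 0.172, FDR 0.0603), and it passed by DESeq2 (FDR 0.0165), without PBS replicate 3 (FDR 0.0382) and without fluvastatin replicate 1 (FDR 0.00467). With MBV it was 0.31 (SE 0.183, FDR 0.257), with an FDR of 0.0242 without MBV replicate 3. Endothelial and pericyte markers, cells that are known sources of Cxcl12 elsewhere, summed to 222.0 to 303.1 and 74.4 to 110.3 CPM over all libraries. With MBV, 1 of 5 and 2 of 4 of them rose, against 12% of all genes. With fluvastatin 0 of each passed, against 19.6% of all genes. The part of these cells in the spread of Cxcl12 was not tested.

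Cxcl14, a chemokine of many epithelia (chromosome 13, 56436456 to 56444364, minus strand), was the second most abundant and differed little between groups. It had 33.9, 34.1 and 39.5 CPM with PBS, 36.8, 43.9 and 42.5 after fluvastatin and 38.4, 42.4 and 43.2 after MBV. The log2 fold change was 0.20 with each treatment when compared to PBS (SE 0.0804, FDR 0.118 with fluvastatin and SE 0.0734, FDR 0.0807 with MBV) and 0.01 between MBV and fluvastatin. PBS replicate 3 lay above the lowest library of both other groups. Without it, Cxcl14 passed with fluvastatin (FDR 0.0490) and with MBV (FDR 0.0271), and it passed without fluvastatin replicate 1 as well (FDR 0.0171).

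Cxcl13, the B cell attractant that acts on Cxcr5 (chromosome 5, 96104810 to 96108927), was present at a low level throughout. The counts were 21, 19 and 18 with PBS, 12, 25 and 17 after fluvastatin and 20, 22 and 25 after MBV. In CPM every MBV library (0.731 to 1.07) was above every PBS library (0.648 to 0.684), a separation that 41.3% of genes showed. The log2 fold change with MBV was 0.46 (SE 0.278, FDR 0.269). With fluvastatin it was 0.10 (SE 0.317, FDR 0.860), and it turned to -0.15 without fluvastatin replicate 2.

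The transmembrane ligands moved in opposite directions with both treatments. Cx3cl1, or fractalkine (chromosome 8, 95498637 to 95509055), had 82.9, 76.8 and 86.4 CPM with PBS, 102.1, 109.1 and 105.2 after fluvastatin and 99.3, 101.8 and 102.3 after MBV. Every library of either treatment was above every PBS library. The mean was 82.0 ± 4.84 CPM with PBS, 105.4 ± 3.48 after fluvastatin and 101.1 ± 1.58 after MBV (SD, n = 3 each). When compared to PBS it was 1.28-fold higher with fluvastatin (log2 fold change 0.36, SE 0.0532, FDR 0.00198) and 1.22-fold higher with MBV (0.29, SE 0.0499, FDR 0.00340). Cx3cl1 passed in all 6 fits that each left out a library, with FDRs up to 0.0152 after fluvastatin and 0.0198 after MBV. The difference between MBV and fluvastatin was -0.06 on the log2 scale (SE 0.0469, FDR 0.681). The 5 ganglion cell markers summed to 448.0 to 538.3 CPM with PBS, 492.1 to 666.5 after fluvastatin and 462.2 to 563.4 with MBV. These sums overlapped between all groups. By the test, 2 of the 5 markers were higher with fluvastatin and 0 with MBV, against 9.36% and 12% of all genes. The part of ganglion cells in the rise of Cx3cl1 was not tested. Of 4620 stretches of 75 bases in Cx3cl1 transcripts, 356 are shared with the lncRNA gene 1700121C10Rik on the other strand.

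Cxcl16, a scavenger receptor and the ligand of Cxcr6 (chromosome 11, 70344809 to 70350810, minus strand), had 14.5, 13.3 and 14.2 CPM with PBS, 11.8, 11.3 and 11.4 after fluvastatin and 10.7, 9.77 and 12.1 after MBV. Every library of either treatment was below every PBS library, as the mean was 14.0 ± 0.660 CPM with PBS, 11.5 ± 0.265 after fluvastatin and 10.9 ± 1.17 after MBV (SD, n = 3 each). On the log2 scale, Cxcl16 fell by 0.29 with fluvastatin (SE 0.0779, FDR 0.0263) and by 0.37 with MBV (SE 0.0915, FDR 0.0164). With fluvastatin, the call was lost without PBS replicate 1 (FDR 0.128), PBS replicate 3 (FDR 0.0682), fluvastatin replicate 2 (FDR 0.0835) or fluvastatin replicate 3 (FDR 0.0733), and by DESeq2 (FDR 0.0604). With MBV, it was lost without PBS replicate 1 (FDR 0.0727) or MBV replicate 1 (FDR 0.0567). Cxcl16 overlaps Med11 and Zmynd15 on the other strand, with which it shares 4010 of 5413 stretches of 75 bases. The counting is not stated to use strand, so reads of these genes may have been split or left out. Neither neighbour passed the test when compared to PBS (Med11 FDR 0.501 after fluvastatin and 0.562 after MBV, Zmynd15 FDR 0.731 and 0.782).

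**Figure D5:**
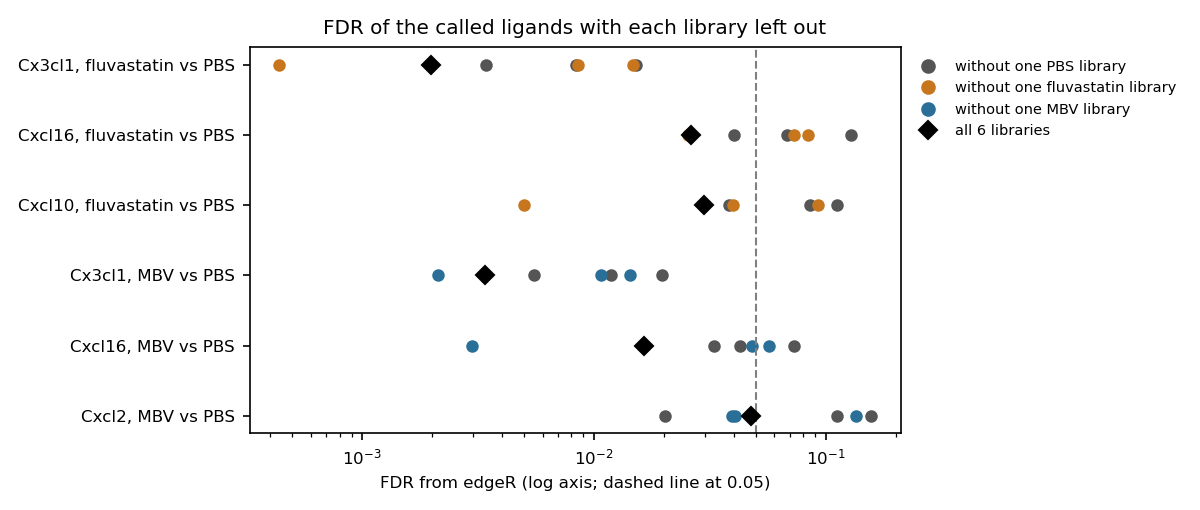
FDR of edgeR (log axis) for each ligand called when compared to PBS, with all 6 libraries (diamond) and with each library left out (points, coloured by the group of the library left out), and a dashed line at 0.05. Cx3cl1 stays left of the line in all fits, whereas 2 to 4 of the 6 points of the other ligands lie right of it.

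Of the receptors of these ligands, Ackr3 fell with both treatments and Ackr1 rose with MBV, and both are decoy receptors. Ackr3, which takes up and clears Cxcl12, fell by 0.83 on the log2 scale with fluvastatin (SE 0.199, FDR 0.0159) and by 1.11 with MBV (SE 0.245, FDR 0.0107). It had 184, 107 and 156 counts with PBS, 77, 79 and 61 after fluvastatin and 50, 52 and 72 after MBV, so every library of either treatment was below every PBS library. The FDR of Ackr3 with fluvastatin was 0.0784 without PBS replicate 1, 0.0615 without fluvastatin replicate 2 and 0.0568 without fluvastatin replicate 3, and with MBV it was 0.0504 without PBS replicate 1. Ackr1, the Duffy receptor that binds many inflammatory chemokines, rose with MBV by 0.40 on the log2 scale (SE 0.0764, FDR 0.00535), from 47.4 ± 0.141 CPM with PBS to 63.1 ± 7.31 (SD, n = 3 each). With fluvastatin, Ackr1 had 52.3 ± 4.48 CPM (FDR 0.152). Of the 8 receptor genes tested of 9, 1 fell with fluvastatin, and with MBV 1 rose and 1 fell, shares that were not above the 19.6% and 26.1% of all genes.

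The signalling receptors did not pass the test in any comparison. Cx3cr1, the microglial receptor of Cx3cl1, had 8.93 CPM with PBS, 8.91 after fluvastatin and 9.48 after MBV in the mean (FDR 0.992 after fluvastatin and 0.742 after MBV when compared to PBS), and the 5 microglia markers, which include it, summed to 18.2 to 25.6 CPM. Cxcr6, the receptor of Cxcl16, had a mean of 16.5, 14.8 and 15.1 CPM with PBS, fluvastatin and MBV. Overlaps with other genes were searched for the ligands only, so the part of reads from other genes in the receptor levels was not tested. Cxcr4 had 1.86, 1.47 and 1.72 CPM, and Cxcr5 0.741, 1.12 and 1.07 CPM, in the same order. Between MBV and fluvastatin, the receptors with the smallest p-values were Ackr1 (p-value 0.0146, FDR 0.369) and Cxcr2 (p-value 0.0426, FDR 0.449).

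Of 5 enzymes that cut chemokines, Mmp2 and Mmp9 rose and Dpp4 fell with both treatments. When compared to PBS, 3 of the 5 passed with fluvastatin and 5 with MBV, against 19.6% and 26.1% of all genes. Mmp2, a matrix metalloproteinase that also trims Cxcl12, rose by 0.56 on the log2 scale with fluvastatin (SE 0.110, FDR 0.00670) and by 0.72 with MBV (SE 0.0809, FDR 0.000678), and passed in all 6 fits that left out a library in each comparison. Mmp9 rose by 0.53 (FDR 0.0349) and 0.64 (FDR 0.0126). Dpp4, a peptidase that inactivates Cxcl10 and Cxcl12, fell by 0.58 (FDR 0.0221) and by 0.41 (FDR 0.0329). With 1 library left out, Mmp9 passed in 2 of 6 and Dpp4 in 3 of 6 fits with fluvastatin, at FDRs up to 0.122 and 0.0961, and Dpp4 passed in 1 of 6 with MBV, at FDRs up to 0.114. The sheddases that release Cx3cl1 and Cxcl16 differed little. With MBV, Adam10 fell by 0.14 (FDR 0.0375) and Adam17 rose by 0.19 (FDR 0.0346), calls that held in 2 of 6 and 1 of 6 fits with a library left out, with FDRs up to 0.155 and 0.153, and were lost by DESeq2 (FDR 0.0568 and 0.0628). Between MBV and fluvastatin none passed, and Adam17 had the smallest p-value (0.0166, FDR 0.375), followed by Mmp2 (p-value 0.157, FDR 0.617).

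Of 13 upstream regulators, 11 were tested, of which 1 passed with fluvastatin and 2 with MBV when compared to PBS, fewer than the 19.6% and 26.1% of all genes. Hif1a was called in both comparisons and Nfkb1 with MBV. Hif1a, the hypoxia factor that drives Cxcl12 and Cxcr4 elsewhere, fell by 0.25 on the log2 scale with fluvastatin (SE 0.0413, FDR 0.00294) and by 0.36 with MBV (SE 0.0424, FDR 0.000801), and this passed in all 6 fits that left out a library in each comparison. Nfkb1, a subunit of NF-kB, rose by 0.32 with MBV (SE 0.0739, FDR 0.0135), from 27.0, 23.5 and 26.0 CPM with PBS to 30.4, 34.8 and 30.8 with MBV. The cytokines that commonly induce Cxcl1 and Cxcl2 had few counts, with 3, 4 and 2 counts of Tnf with PBS and 6, 6 and 7 with MBV (FDR 0.105), and 14, 4 and 22 counts of Il1b with PBS and 6, 7 and 22 with MBV (FDR 0.966). Between MBV and fluvastatin, Nfkbia, the NF-kB inhibitor (p-value 0.00443, FDR 0.294), and Irf7 (p-value 0.0191, FDR 0.392) had the smallest p-values. Of the other CXC ligands, Pf4 alone passed, lower with both treatments as described above, out of 5 tested of 6, and Cxcl15 had no count. Between MBV and fluvastatin, Cxcl3 (p-value 0.0475, FDR 0.460) and Pf4 (p-value 0.103, FDR 0.556) came first among them.

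Genes whose level on the log2(CPM + 0.5) scale went with a ligand over the 9 libraries are given as a description, for the 6 ligands with a mean of at least 10 counts and out of 15055 genes. The libraries differ by group and in depth, so a high correlation over them says nothing of shared control. For Cx3cl1 the closest were Cux1 (Pearson r 0.991), Marchf4 (0.990) and Lmtk2 (0.989), and for Cxcl16 they were Emc7 (0.983), Ccdc148 (0.983) and the pigment gene Tyrp1 (0.981). Tyrp1 had 725, 628 and 794 counts with PBS, 224, 118 and 136 after fluvastatin and 90, 40 and 211 after MBV, a far wider range than that of Cxcl16. For Cxcl10, the closest were Mak (0.955), Tmem43 (0.95) and Pdia6 (0.947), for Cxcl12 Eloa (0.976), Fam155a (0.975) and Atp6ap1l (0.949), for Cxcl14 Slc6a8 (0.981), D430041D05Rik (0.981) and Shh (0.974), and for Cxcl13 Rnf157 (0.955), Zfp652 (0.953) and Cd34 (0.947). Between the ligands themselves, r over the 9 libraries was 0.814 for Cx3cl1 and Cxcl14 and -0.763 for Cx3cl1 and Cxcl16. The strongest r of Cxcl10 with another of these ligands was -0.601, with Cxcl16.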

How the data were processed

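Whole-retina RNA of 12 samples was extracted with TRIzol, made into TruSeq Total RNA libraries and sequenced on a NextSeq500. Reads were aligned to GRCm39 in CLC Genomics Workbench. The authors deposited 4 tables with raw counts per gene, without normalization, beside their own fold changes and p-values, which were not used. The 6 count columns of the combined-treatment table carry no library name, so they were used in no step. The 9 named libraries held 21349516 to 30992040 counts each, and edgeR 4.0.16 in R 4.3.3 served for the analysis. A library that appears in more than 1 table had identical counts in each.

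Any gene with 1 count or more among the 6 libraries entered the test. Libraries were scaled by TMM, each fit held the 2 groups compared, and the quasi-likelihood p-values of edgeR were adjusted by Benjamini-Hochberg over all genes (FDR). The SE is the log2 fold change divided by the square root of F. A count of 3 per library was taken as the limit of detection. As no molecular identifiers were used, intervals and this limit cover counting error alone. The common coefficient of variation of edgeR was 7.78% (fluvastatin, PBS), 8.57% (MBV, PBS) and 10.1% (MBV, fluvastatin). It is a value shared by all genes, with counting error taken out. Single ligands differed from it, and the observed coefficient of variation in CPM with MBV was 1.56% for Cx3cl1 and 87.3% for Cxcl10. DESeq2 1.42.0, its size factors in edgeR, more than 10 counts in 2 libraries, a replicate block, all 9 libraries in one fit and leaving out each library were the alternatives.

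All 10 ligands are named. Of the receptors, enzymes, regulators and other CXC ligands, genes past an FDR of 0.05 in a comparison are named, or the 2 with the smallest p-value where none passed, and all receptors of the ligands. Cxcl11, Cxcl15, Irf1, Irf7, Irf9, Tnf, Il1b, Ifng, Ifnb1, Ccr2, Ly6c2, Vcan, Ly6g, Mpo, Art3, Med11 and Zmynd15 were named after their values were seen, and 1 gene of the regulators is not reported here. Genes most like a ligand were the 3 with the highest Pearson r among genes with a mean of at least 10 counts. The members and lists were chosen with earlier results of these data known. Gene positions are from the deposited tables, exon lengths, overlaps and shared stretches from GENCODE mouse release M39, and other steps used Python 3.11.15, pandas 2.3.3 and scipy 1.17.1. The procedure was tested on simulated data, where 200 genes with ample counts were changed and all genes had the same set spread. That test does not cover ligands with few counts or a wide spread.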

Additional observations from a re-analysis of the deposited data

How the results depend on the processing

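Leaving out 1 library moved the number of ligands with an FDR under 0.05 between 1 and 5 for fluvastatin compared to PBS (3 with all libraries), between 1 and 5 for MBV compared to PBS (3) and between 0 and 1 for MBV compared to fluvastatin (0). The count was 1 without PBS replicate 1 in both comparisons to PBS and without fluvastatin replicate 3, and 5 without fluvastatin replicate 1, PBS replicate 3 or MBV replicate 3, the latter 2 for MBV. DESeq2 called 1 ligand, Cxcl2, for MBV compared to fluvastatin. The other counts under the other alternatives stayed within 1.5 times those given. Directions that turned when 1 library was left out belong to calls that did not pass. The log2 fold change of Cxcl13 with fluvastatin ranged from -0.15 to 0.31, that of Ppbp with MBV from -2.29 to 0.29, and between MBV and fluvastatin that of Cxcl12 from -0.40 to 0.014 and that of Cxcl14 from -0.065 to 0.060. Over all alternatives, fold changes and levels per kilobase were counted together. Of these, 381 values stayed, which means the same direction and side of the threshold, or a level moved by less than the SD of the libraries. Of the fold changes, 51 lost a call, 13 gained one and 8 turned. With the length of the canonical transcript, 5 levels per kilobase moved. The causes were not tested. DESeq2 gave no adjusted p for 7 further fold changes, all of genes with few counts.

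Over all genes, the number with an FDR under 0.05 for MBV compared to fluvastatin was 11 by edgeR, 126 by DESeq2, 5 with more than 10 counts in 2 libraries, 0 with the replicate block, 38 with all 9 libraries and 0 to 197 with 1 library left out. For fluvastatin and for MBV compared to PBS, 3687 and 4937 genes became 1726 to 4402 and 2711 to 5664 with 1 library left out.

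Replicate numbers were not taken to pair the samples, since the deviations of same-numbered libraries correlated at 0.0285, -0.0299 and 0.159 for fluvastatin and PBS, at 0.0121, -0.0131 and 0.0391 for MBV and PBS, and at -0.141, 0.0205 and -0.366 for MBV and fluvastatin. With the replicate block, 3 ligands passed with fluvastatin and 2 with MBV when compared to PBS, and 0 between them. With MBV, the calls of Cxcl2 (FDR 0.0659), Pf4 (0.0663), Adam10 (0.0837) and Adam17 (0.0823) were lost with the block. The comparisons planned for the combined treatment, the main effects of MBV and fluvastatin and their interaction were not run. Depth limits Cxcl1, Cxcl2, Cxcl9 and Ppbp, whose libraries had 0 to 26 counts. It also limits Cxcl13, with 12 to 25 counts, and Cxcl10, with 6 to 15 counts with PBS.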
